A study of Bos grunniens with 3 samples.

Results

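The *ELOVL3* high cells of yak skin were the cells that carried large amounts of transcript of *ELOVL3*, a fatty acid elongase, without being rich in inner root sheath (IRS) or hair cortex keratins. A cell was a member when it had at least 200 detected genes, at least 5 unique molecular identifiers (UMIs, each standing for 1 captured transcript) of *ELOVL3*, and *ELOVL3* at 1000 or more counts per 1000000 of its own UMIs (CPM), while the summed UMIs of *KRT71*, *KRT25*, *KRT27* and *KRT28* and those of *KRT85* and *KRT35* each stayed below 1% of its UMIs. By this rule 152 of 38551 cells were members, and they comprised 131 of 11987 cells in anagen, 3 of 12062 in catagen and 18 of 14502 in telogen. The level of *ELOVL3* and the 6 keratins therefore chose the cells and are no finding about them.

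The cells came from droplet single-cell RNA sequencing (10x Genomics, 3' v2 chemistry) of scapular skin of healthy Tianzhu white yaks aged about 2 years. There was 1 library for each phase of the hair cycle, namely anagen (growth), catagen (regression) and telogen (rest). The skin strips were treated with a dispase-type enzyme, individual follicles were pulled out, and their cells were released with trypsin. The labels did not assign animals to libraries, the protocol text of the library labelled catagen named anagen, and with 1 library per stage no difference between stages or groups has a replicate check. All intervals given here are 95% intervals that cover counting error only.

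The kept cells of the anagen, catagen and telogen libraries had median depths of 5256, 3350 and 5583.5 UMIs. The members had medians of 3877 UMIs in anagen (range 2406 to 30422), 11463 in catagen (1376 to 13024) and 19821 in telogen (6619 to 85974), so the telogen members were deeper than the cells around them and the anagen members shallower. The lowest deposited cell held 2404 UMIs in anagen and 500 in each of the other libraries. Libraries shared 43 (anagen and catagen), 40 (anagen and telogen) and 49 (catagen and telogen) cell barcodes, and 2 members had such a barcode.

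Sebocytes are the cells of the sebaceous gland, an appendage of the hair follicle. They fill with lipid droplets and then burst to release sebum, a mixture rich in triglycerides, wax esters and sterols. Fatty acids for these lipids are built by fatty acid synthase, lengthened in the endoplasmic reticulum by the ELOVL elongases with their reductases and dehydratases, reduced to fatty alcohols for wax esters, and joined to glycerol or sterols by acyltransferases. *ELOVL3* is known from mouse skin, where it is expressed in the sebaceous gland and its loss disturbs the coat and its lipids.

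In anagen 1.09% of the kept cells were members (Clopper-Pearson interval 0.915% to 1.30%), in catagen 0.0249% (0.00513% to 0.0727%) and in telogen 0.124% (0.0736% to 0.196%). Under this rule the intervals of the 3 stages did not overlap. The order of catagen and telogen depended on the keratin limits, since without them the shares were 1.32% in anagen (158 cells), 0.174% in catagen (21 cells, 0.108% to 0.266%) and 0.152% in telogen (22 cells, 0.0951% to 0.230%), and the intervals of catagen and telogen overlapped. When only cells with at least 2500 UMIs were kept, to bring the libraries to a similar floor, the shares were 1.06%, 0.0258% and 0.172%, or 123, 2 and 18 members. Animal, stage and library cannot be told apart in these shares.

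Within the members *ELOVL3* ranged from 1049 to 25637 CPM in anagen, with a median of 6488, and from 1058 to 24277 in telogen, with a median of 13422. The 3 catagen members had 18582, 6541 and 3762 CPM. The members held 84.3% of all *ELOVL3* UMIs of the kept cells in anagen, 21.8% in catagen and 91.6% in telogen. In catagen 18 further cells passed the *ELOVL3* thresholds and were set aside for their keratins. Together with these and their counterparts in the other libraries, the cells past the thresholds held 91.0%, 80.6% and 95.6% of the *ELOVL3* UMIs.

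The thresholds were set on a continuous range. Of the 131 anagen members, 10 had between 1000 and 2000 CPM of *ELOVL3*, and 7 of these 10 carried at least 5 UMIs of the elongase *ELOVL1*. Just outside, 24 anagen, 7 catagen and 2 telogen cells had at least 3 UMIs and 500 CPM of *ELOVL3* without passing both thresholds, and 8, 2 and 0 of them had at least 5 *ELOVL1* UMIs. The keratin limits removed 27, 18 and 4 cells, and 10, 0 and 1 of these carried at least 5 *ELOVL1* UMIs. Of the 11 removed anagen cells whose keratin sums were under 2%, 9 carried at least 5, and all 7 anagen members with IRS keratins of 0.5% to 1% carried at least 6.

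A further elongase, *ELOVL1*, which acts on saturated very long chain fatty acids, accompanied *ELOVL3* in most members. In anagen *ELOVL1* was found in 131 of 131 members, at 61.7 CPM in the lowest, 5771 in the median and 21575 in the highest cell. In telogen it was found in 16 of 18 members, with 0 in the lowest, 13026 in the median and 19249 CPM in the highest cell. The cells with much *ELOVL3* were also those with much *ELOVL1*, with a Spearman rho of 0.86 across the 131 anagen members and 0.74 across the 18 telogen members. These values are a description, because *ELOVL3* chose the cells and the cells of a library share its preparation. The telogen value includes the 2 members without *ELOVL1*. By the same thresholds applied to *ELOVL1* without the keratin limits, 148 anagen, 13 catagen and 21 telogen cells were *ELOVL1* high. Members made up 81.1%, 7.69% and 71.4% of these, and *ELOVL1* high cells made up 91.6%, 33.3% and 83.3% of the members.

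**Figure D1:**
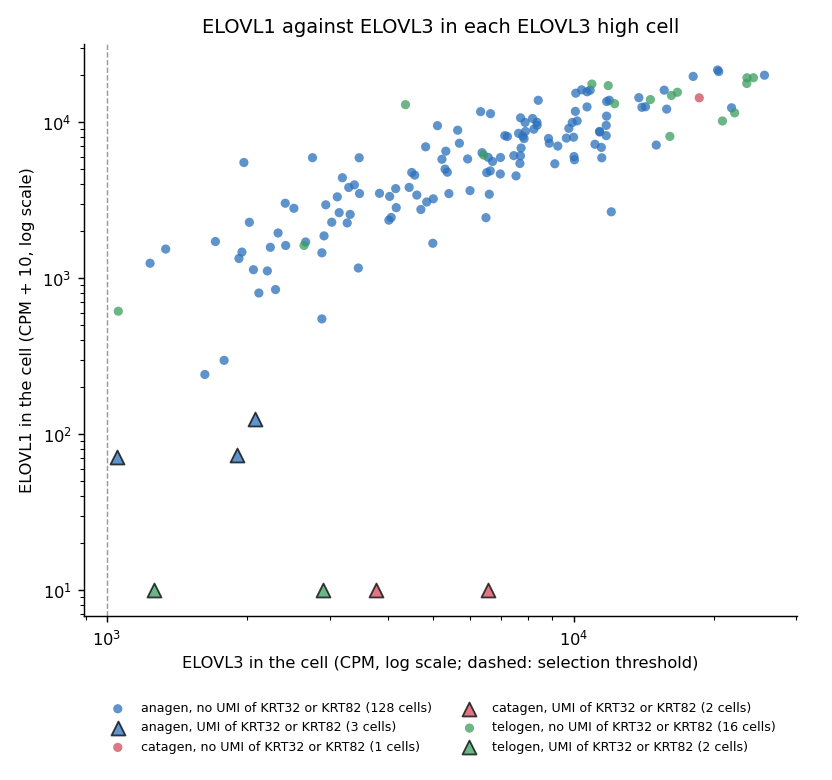
ELOVL1 in CPM with 10 added (vertical log axis) against ELOVL3 in CPM (horizontal log axis) in each of the 152 members, coloured by stage, with a dashed line at the threshold of 1000 CPM; triangles mark the 3 anagen, 2 catagen and 2 telogen members that carried a UMI of KRT32 or KRT82. ELOVL1 rose with ELOVL3 in the circles, whereas the triangles lay at the bottom of the plot with 0 or 1 ELOVL1 UMI each.

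The summed profile of the members was then set against all other kept cells of the same library, which were 11856 in anagen and 14484 in telogen. Ratios are on the log2 scale with 10 CPM added to each side, and a gene counted as higher or lower when it was at least 2-fold apart on that scale. In anagen 487 of 5950 genes (8.18%) were higher and 434 (7.29%) lower. In telogen 789 of 5945 (13.3%) were higher and 806 (13.6%) lower, and median-of-ratios scaling changed this split to 594 higher and 1067 lower while moving the median of all genes from 0.05 to -0.14. A group picked by a measured gene differs from the rest by construction, so these counts describe the members and are no test.

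Among genes with a symbol, those of lipid assembly led the profile. *MBOAT2*, a lysophospholipid acyltransferase, reached 1990 CPM in the anagen members against 10.2 in the other cells, a ratio of 194 (exact conditional interval 179 to 212), and 2613 against 3.11 in telogen (ratio 841, 743 to 953). *MBOAT2* was found in 125 of 131 anagen members, with a median of 1545 and a highest value of 5822 CPM, and in 18 of 18 telogen members, from 51.8 through a median of 3084 to 4946 CPM. The summed level of *ELOVL1* was 8434 against 112 CPM in anagen (ratio 75.6, 73.2 to 78.0) and 11565 against 91.0 in telogen (ratio 127, 123 to 131). Both genes were therefore far above the level of the surrounding cells in nearly every member, and not in a few of them.

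*ACSBG1*, an acyl-CoA synthetase that activates long and very long chain fatty acids, was present in 106 of 131 anagen members (median 596, highest 3399 CPM) and in 16 of 18 telogen members (median 845, highest 2123), and its log2 ratio was 5.97 and 5.87. *PNPLA3*, a lipase and acyltransferase of lipid droplets, had 664 against 0.964 CPM in anagen and 990.0 against 0.447 in telogen. *MOGAT3*, which acylates monoacylglycerol, had 535 against 0.415 CPM and 764 against 0.107. Deep cells weigh more in such sums. The median member had 392 CPM of *PNPLA3* and 268 of *MOGAT3* in anagen, and 874 and 848 in telogen. *PNPLA3* and *MOGAT3* were thus below 1 CPM outside the members, whereas *ACSBG1* also had 483 UMIs in the other anagen cells beside 820 in the members, and 522 beside 419 in telogen. Below 1 CPM outside the members were also *FAR2*, the reductase that makes fatty alcohols for wax esters, with 297 against 0.354 CPM in anagen and 677 against 0.185 in telogen, and *AADACL2*, named for its likeness to arylacetamide deacetylase, with 262 against 0.256 and 890 against 0.175 CPM. *FAR2* UMIs occurred in 69 of 131 and 15 of 18 members, and *AADACL2* UMIs in 58 and 13.

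The remaining genes of the 20 highest ratios among genes with a symbol in anagen, the library that set the ranking, were as follows. *FA2H*, which hydroxylates fatty acids for ceramides, had log2 ratios of 5.08 in anagen and 5.81 in telogen. *ECHDC1*, an ethylmalonyl-CoA decarboxylase, had 5.03 and 6.12. *PLIN2*, the coat protein of lipid droplets, had 889 against 23.1 CPM in anagen (4.76) and 1669 against 35.2 in telogen (5.21), with UMIs in 100 of 131 and 15 of 18 members. The median member had 392 CPM of *PLIN2* in anagen and 1514 in telogen. *APOE*, an apolipoprotein, had 1423 against 62.0 CPM (4.32) and 3867 against 19.5 (7.04). The others were *PEX16* (4.68 and 5.38), which is needed to build peroxisomes, the dienoyl-CoA reductase *DECR1* (4.43 and 4.52), the endoplasmic reticulum peptidase *ERMP1* (4.41 and 5.35), the glycosphingolipid galactosyltransferase *B4GALT6* (4.20 and 4.28), the lysophosphatidic acid acyltransferase *AGPAT4* (4.13 and 4.34), the Fc receptor *FCGRT* (3.71 and 4.23), the elongation cycle dehydratase *HACD2* (3.68 and 3.71), *ACAD9* (3.67 and 3.76) of the acyl-CoA dehydrogenase family and the dienoyl-CoA isomerase *ECH1* (3.65 and 3.73). Of genes listed only by an identifier, ENSBGRG00000017082 (7.12 and 7.45) and ENSBGRG00000022766 (6.17 and 6.19) had the highest ratios.

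**Figure D2:**
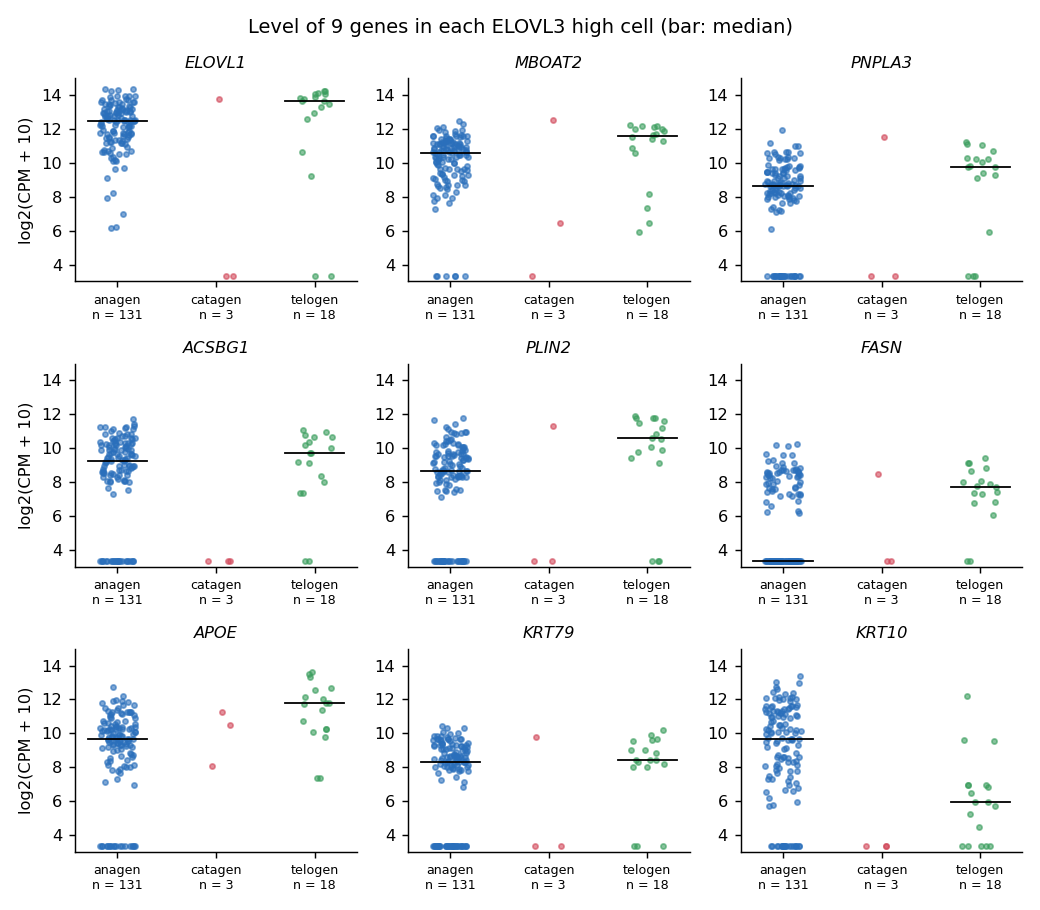
Level of 9 genes in each member, as log2 of CPM with 10 added (vertical axis), with 1 point per cell in anagen (131 cells), catagen (3) and telogen (18) and a bar at the median of anagen and telogen. ELOVL1 and MBOAT2 were high in nearly all cells, with medians of 5771 and 1545 CPM in anagen, whereas FASN was at 0 in most anagen cells and KRT10 spread from 0 to 10885 CPM.

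Genes of elongation were the most abundant lipid group. Beside this and the list counts that follow, 8.18% of all genes were higher and 7.29% lower in anagen. In telogen these shares were 13.3% and 13.6%. Of the 18 genes listed, 13 had a row and 8 were counted in anagen, of which 7 were higher and none lower (median log2 ratio 2.22, against -0.11 over all genes). In telogen all 7 counted genes were higher (median 2.89, against 0.05). The group summed to 11185 CPM in the members against 579 in the other anagen cells and to 15052 against 512 in telogen, mostly through *ELOVL1*. *TECR*, the last reductase of the cycle, had 1191 against 232 CPM in anagen (2.31) and 1445 against 212 in telogen (2.71). *ELOVL4*, an elongase of ultra long chains, had 312 against 63.8 CPM (2.12) and 687 against 62.3 (3.27), with UMIs in 68 of 131 and 14 of 18 members. *HSD17B12*, the ketoreductase of the cycle, had 2.45 and 2.89. No UMI of *ELOVL5*, an elongase of polyunsaturated chains, was found in the members of either library, where 0 counts allow up to 3.61 CPM in anagen and 6.23 in telogen.

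Fatty acid synthesis genes were higher in 7 of 10 counted in anagen (median 1.56) and 7 of 9 in telogen (median 2.74), and none was lower. *FASN*, the fatty acid synthase, had 195 against 8.18 CPM in anagen (ratio 23.8, 19.9 to 28.3) and 259 against 6.26 in telogen (ratio 41.5, 34.0 to 50.3). Its UMIs were found in 61 of 131 anagen members, so that the median was 0 and the highest value 1224 CPM, and in 16 of 18 telogen members, with a median of 200.4 and a highest value of 670 CPM. *ME1*, which supplies NADPH, had 3.62 and 4.16, *ACACA*, the acetyl-CoA carboxylase, had 2.49 and 2.98, and *INSIG1*, a sterol-regulated retention protein, had 2.32 and 2.92. *SREBF1*, a transcription factor of lipogenic genes, had 387 against 95.9 CPM (1.91) and 415 against 53.6 (2.74).

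Genes of triglyceride, wax ester and droplet formation were higher in 8 of 14 counted in anagen (median 1.43) and 8 of 13 in telogen (median 1.30). Beside *PLIN2*, *PNPLA3*, *MOGAT3* and *FAR2* these included *GPAM*, which acylates glycerol phosphate (3.40 and 3.88), and *SOAT1*, which esterifies cholesterol (54.1 against 2.82 CPM, 2.32, in anagen; 137 against 1.37 CPM, 3.69, in telogen). *DGAT2*, an enzyme of the last step of triglyceride synthesis, was not past 2-fold, with 8.42 against 12.5 CPM in anagen and 35.3 against 13.9 in telogen, where its UMIs came from 3 of 18 cells.

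Genes of ceramide and barrier lipids were higher in 9 of 14 in anagen (median 1.49) and 9 of 12 in telogen (median 2.08), with 1 lower in each. *DEGS1*, the ceramide desaturase, was the most abundant, with 1246 against 176 CPM and 1260 against 222. *KDSR*, an early reductase of the pathway, had 3.37 and 4.16, and the ceramide synthases *CERS2* and *CERS5* had 3.31 and 2.90 in anagen and 3.03 and 3.87 in telogen. The lower gene in anagen was *UGCG*, which makes glucosylceramide, with 50.5 against 128 CPM (-1.19).

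Lipid uptake and binding genes went both ways, with 7 higher and 2 lower of 13 in anagen (median 1.21) and 7 higher and 4 lower of 11 in telogen (median 1.23). *FABP5*, a fatty acid binding protein of epidermis and gland, had 1376 against 408 CPM (1.73) and 3400 against 744 (2.18), with UMIs in 124 of 131 and 18 of 18 members. *PMP2*, another member of the binding protein family, was lower, with 174 against 515 CPM in anagen (-1.51) and 2.08 against 326 in telogen (-4.80). Peroxisome and fatty acid oxidation genes were higher in 6 of 14 (median 0.82) and 7 of 15 (median 0.99), among them catalase (*CAT*, 2.83 and 2.12), *PEX3* (2.40 and 2.75) and the thiolase *ACAA1* (2.17 and 2.57).

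Cholesterol synthesis did not follow the other lipid groups. Of 13 counted genes, 2 were higher and 2 lower in anagen (median -0.14) and 4 higher and 1 lower in telogen (median 0.08), both medians close to those of all genes. The higher genes of both stages included *HSD17B7* (2.38 and 2.50) and *SC5D* (170 against 32.0 and 295 against 20.9 CPM), which act late in the pathway. Over the union of the 7 lipid lists, 46 of 84 counted genes were higher and 5 lower in anagen (median 1.36) and 49 of 80 were higher and 7 lower in telogen (median 1.53). Over all genes 8.18% were higher and 7.29% lower in anagen, and 13.3% and 13.6% in telogen. The union listed 161 genes, of which 135 had a row and 29 in anagen and 43 in telogen had no UMI in the members. Because a gene was counted at 10 CPM in either sum, some entered the counts through the members alone. Among these were *PNPLA3*, *MOGAT3*, *FAR2* and *SOAT1*. Counts and medians of the lipid and sebocyte lists thus describe the members and are no test.

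**Figure D3:**
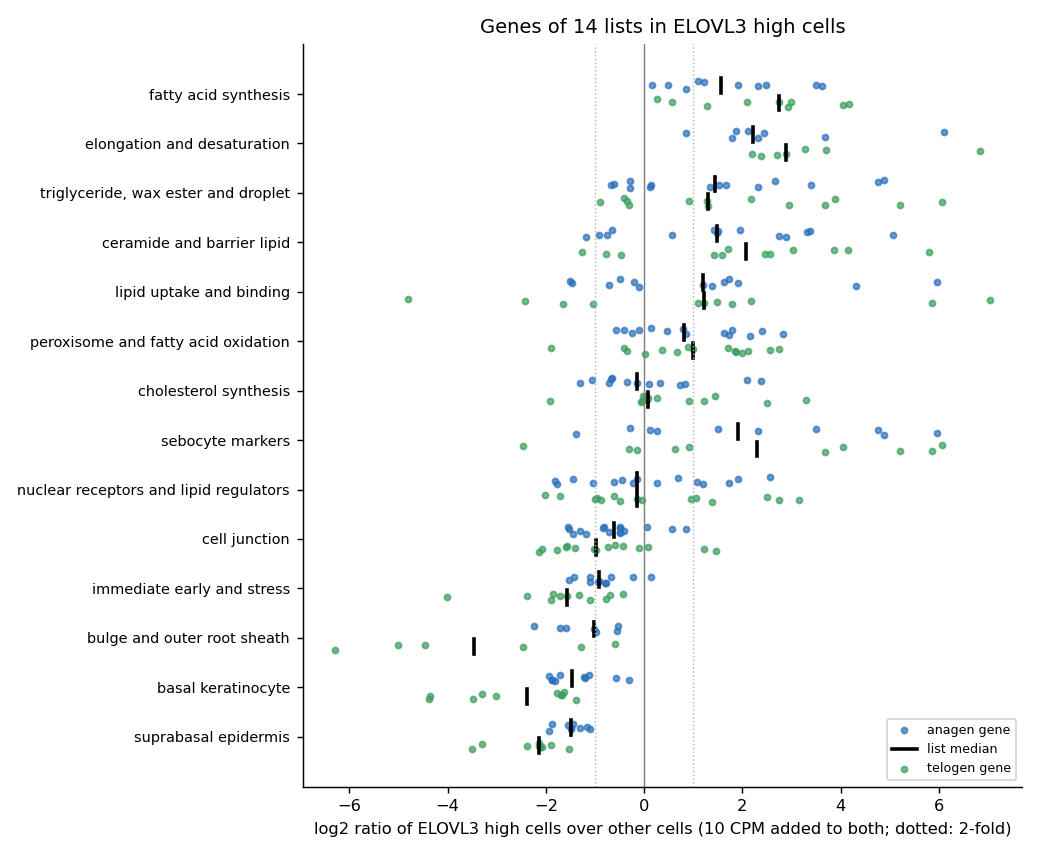
Log2 ratio of the members over the other cells of the same library (horizontal axis, 10 CPM added) for the genes of 14 lists, with anagen in blue, telogen in green, a black mark at each list median and dotted lines at 2-fold. Elongation had the medians 2.22 in anagen and 2.89 in telogen, whereas the suprabasal list lay entirely below 2-fold with medians of -1.48 and -2.14.

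The list of 20 sebocyte markers answered the question whether lipid genes mark these cells as sebocytes only in part. The list had 15 genes with a row, and *PPARG*, *FADS2*, *APOC1*, *CIDEA* and *MUC1* had none. Of 10 counted genes, 6 were higher and 1 lower in anagen (median 1.91), and 5 were higher and 1 lower in telogen (median 2.31). The shares over all genes were 8.18% higher and 7.29% lower in anagen, and 13.3% and 13.6% in telogen. *ACSBG1*, *PLIN2*, *FASN*, *SOAT1* and *FAR2* were higher in both, and *MGST1*, a microsomal glutathione transferase, had 87.8 against 24.5 CPM in anagen, past 2-fold, and 91.3 against 55.1 in telogen (0.64). The summed list was 2592 CPM in the members against 171 in the other anagen cells and 3800 against 244 in telogen. The part of the list that separated the members from other cells thus overlapped with the lipid lists above. Other genes of the list were not higher. *DGAT2L6*, of the acyltransferase family, had 0.12 and -0.31. *SCD*, the desaturase that is usually abundant in sebaceous glands, gave 3 UMIs in the anagen members of 154 in the library and 1 of 59 in telogen. The wax synthases *AWAT1* and *AWAT2*, the droplet protein *PLIN5* and the melanocortin receptor *MC5R* had 0 UMIs in the members and 0 to 2 in each whole library. *KRT7*, a keratin of gland epithelium, was lower, with 9.62 against 41.7 CPM in anagen (-1.40) and 2.08 against 57.1 in telogen (-2.47).

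Regulators did not move together. Of 15 counted genes for nuclear receptors and lipid regulators, 5 were higher and 4 lower in anagen (median -0.14), and 5 were higher and 3 lower in telogen (median -0.15). All genes gave 8.18% higher and 7.29% lower in anagen, and 13.3% and 13.6% in telogen. Beside *SREBF1*, the oxysterol receptor *NR1H3* (83.0 against 5.81 CPM, 2.56; 152 against 8.19 CPM, 3.15, in telogen) and the orphan receptor *RORA* (1.19 and 1.37) were higher, as were the retinoid X receptors *RXRG* (1.72 and 2.50) and *RXRA* (1.08 and 1.06), which were named after their values were seen. Likewise named afterwards, *KLF5* (-1.81), *PRDM1* (-1.78), *GRHL3* (-1.46) and the glucocorticoid receptor *NR3C1* (-1.04) were the lower genes in anagen.

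Since depth differed between cells, each cell with at least 1500 UMIs was also thinned to 1500. In telogen this left out 2932 other cells and 2 endothelial cells but no member, and in anagen it left out no cell. In anagen a UMI of *ELOVL1* remained in 94.7% of members (exact interval 89.3% to 97.8%) and 13.4% of the other cells, of *MBOAT2* in 84.7% (77.4% to 90.4%) and 1.29%, of *PLIN2* in 52.7% (43.8% to 61.5%) and 3.04%, and of *FASN* in 22.1% (15.4% to 30.2%) and 1.20%. Unthinned, the members' shares were 100%, 95.4%, 76.3% and 46.6%. Endothelial cells, another lineage taken for comparison, had thinned shares of 10%, 2%, 2% and 2% and unthinned shares of 42%, 4%, 8% and 4% over 50 anagen cells, with a median depth of 4420 UMIs beside 3877 in the members. In telogen the thinned shares were 88.9% for *ELOVL1*, 83.3% for *MBOAT2*, 66.7% for *PLIN2* and 38.9% for *FASN*, against 23.3%, 0%, 0% and 0% of 30 endothelial cells, where 0 of 30 allows up to 10%. Unthinned, *ELOVL1* was found in 46.9% and *PLIN2* in 18.8% of the 32 telogen endothelial cells. The unthinned telogen shares were 88.9%, 100%, 83.3% and 88.9%, and the endothelial cells had a median of 4658.5 UMIs before thinning beside 19821 in the members. The members' thinned shares lay above the endothelial ones for each of the 4 genes in both libraries.

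Most genes of the suprabasal and basal keratinocyte lists were lower in the summed members, though not in each group of anagen members described below. All 9 counted suprabasal genes were lower in both libraries, with medians of -1.48 and -2.14, and the list summed to 5684 against 16453 CPM in anagen and 2933 against 19113 in telogen. *KRT10*, a keratin of differentiated epidermis, had 1021 against 3753 CPM in anagen (-1.87) and 477 against 4804 in telogen (-3.30), and its partner *KRT1* had -1.49 and -3.50. In telogen a single member held 80.4% of the *KRT10* and 86.2% of the *KRT1* UMIs, and without it the levels were 102 and 81.4 CPM (-5.43 and -6.09), with 9 of 9 suprabasal genes still lower. Even so, *KRT10* UMIs occurred in 111 of 131 anagen members (84.7%), at a median of 805 CPM, beside 56% of endothelial cells. In telogen the shares were 72.2% of members and 56.3% of endothelial cells. After thinning they were 61.8% and 26% in anagen, and 22.2% and 33.3% in telogen. The telogen intervals overlapped after thinning (6.41% to 47.6% and 17.3% to 52.8%) and before it (46.5% to 90.3% and 37.7% to 73.6%). The order of telogen members and endothelial cells is therefore not settled.

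Of the basal keratinocyte list, 8 of 10 genes were lower in anagen (median -1.46) and 10 of 10 in telogen (median -2.39). *KRT14*, the main basal keratin, was an exception in anagen, with 8572 against 10623 CPM (-0.31) and a range from 0 through a median of 8756 to 47573 CPM among cells, and was lower in telogen with 6606 against 20350 CPM (-1.62). Its partner *KRT5* had 229 against 833 CPM (-1.82) and 64.3 against 1531 (-4.37). Of the bulge and outer root sheath list, 4 of 7 genes were lower in anagen and 5 of 6 in telogen (medians -1.01 and -3.47), among them *SOX9* (-1.01 and -2.48), a factor of the stem cell compartment. The upper follicle keratin *KRT79* went the other way, with 422 against 33.4 CPM in anagen (3.31) and 461 against 114 in telogen (1.93), with UMIs in 94 of 131 and 15 of 18 members, while 3 other genes of the upper follicle list were lower in each library. Companion layer genes were lower in 3 of 4 in anagen and 4 of 4 in telogen, genes of sweat gland and simple epithelium in 2 of 3 in each, and granular layer genes in 0 of 4 and 1 of 3, with none higher in any of these lists.

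The 10 lowest ratios in anagen of all genes with a symbol, some of which are also in the lists, are given with their telogen values, where the order was another. They began with the chemokine *CCL20* (34.9 against 443 CPM, -3.33, in anagen; -3.22 in telogen). They went on with the companion layer keratin *KRT75* (-2.82 and -3.89), the protease *KLK7* of cornified layers (-2.73 and -1.85), the epidermal growth factor receptor ligand *AREG* (-2.63 and -2.31), the actin-binding *TAGLN* (-2.61 and -4.31), *IGFBP3*, which binds insulin-like growth factors (-2.41 and -1.64), the inositol trisphosphate kinase *ITPKC* (-2.36 and -2.37), the Wnt antagonist *SFRP1* (-2.23 and -4.46), the small heat shock protein *CRYAB* (-2.12 and -3.03) and *KLK10*, another kallikrein (-2.03 and -0.93, the latter short of 2-fold). In telogen 1 member with 6619 UMIs held 97.6% of the *KLK10*, 72.5% of the *KLK7* and 97.0% of the *CRYAB* UMIs, and without it the ratios were -3.94, -3.54 and -5.72. Without the keratin limits on the members *KLK7* (-0.70) and *KLK10* (-0.39) in anagen and *KLK7* (-0.91) in telogen were short of 2-fold, and *AREG* in telogen was at 0.15. With the mean over cells *KLK7* was at 0.12 in telogen. In telogen *KRT75*, *TAGLN*, *ITPKC* and *SFRP1* rested on 1 UMI each in the members. Among genes listed only by identifier, ENSBGRG00000020251 and ENSBGRG00000018549 were lowest.

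Markers of cell types outside the epithelium were mostly low or at 0 in the members, with *PLIN4* and *ADIPOR2* as exceptions. Of the mesenchymal list, 3 of 3 counted genes were lower in anagen, and *COL1A2* and *VIM* had 0 UMIs in the members of both libraries. The contractile and immune lists had 1 counted gene each, *TAGLN* and *CD74*, lower in both. No endothelial or melanocyte gene reached 10 CPM in either group of cells. Of the adipocyte list, *PLIN4* and *ADIPOR2* were higher in both libraries (1.34 and 1.73 in anagen), whereas *LEP*, *LPL*, *PLIN1* and *LIPE* had 0 UMIs in the members. Mitotic genes were lower in 3 of 5 in anagen and 1 of 5 in telogen, S phase genes in 5 of 8 and 3 of 8, immediate early genes in 4 of 11 and 8 of 11, and cell junction genes in 5 of 16 and 7 of 15, with 2 junction genes, *DSG4* and *PKP2*, higher in telogen (1.21 and 1.46). Of all genes, 7.29% were lower in anagen and 13.6% in telogen, and these lists are short.

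The anagen and telogen libraries were prepared separately and gave ratios for 5440 genes in common. Of the 476 of these that were higher in anagen members, 430 (90.3%) were also higher in telogen, and these were 58.7% of the 732 telogen genes. A further 303 genes were lower in both and 0 were higher in 1 library and lower in the other. Of the 77 lipid genes compared, 45 were higher in both. The rule that chose the cells was the same in both libraries.

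**Figure D4:**
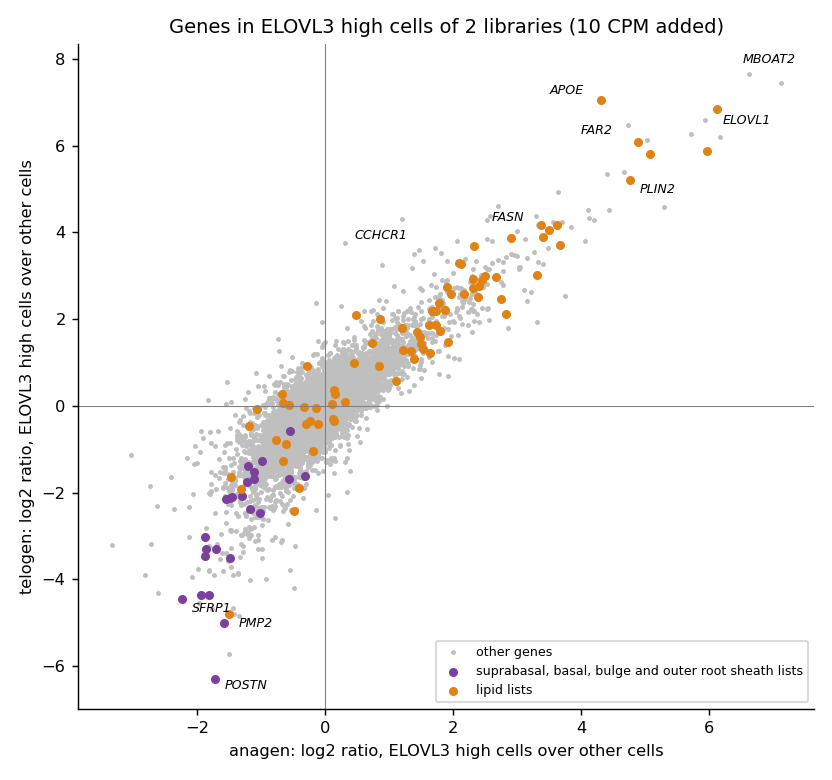
Log2 ratio of the members over other cells in telogen (vertical axis) against that in anagen (horizontal axis) for 5440 genes, with lipid list genes in orange and genes of the suprabasal, basal, and bulge and outer root sheath lists in purple. Lipid genes lay mainly in the upper right, with 45 of 77 at least 2-fold higher in both libraries, and the purple genes in the lower left and lower in telogen than in anagen.

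The members were next set against 3 kinds of cells of the same libraries. Against IRS cells (IRS keratins of at least 1%, 218 cells in anagen and 80 in telogen) 751 of 5594 genes (13.4%) were higher and 5.09% lower in anagen, and 18.2% and 9.28% in telogen. Of the lipid union, 42 of 82 counted genes were higher and 7 lower in anagen (median 1.29), and 49 of 82 higher and 9 lower in telogen (median 1.39). The highest ratios were those of *ACSBG1* (6.14), *PNPLA3* (5.71), *ELOVL1* (5.41), *MOGAT3* (5.31), *PLIN2* (5.28), *KRT79* (4.82), the serine synthesis phosphatase *PSPH* (4.80) and *FAR2* (4.77) in anagen. The lowest were *PMP2* (-6.21), the growth factor *FGF2* (-4.68), the IRS keratin *KRT73* (-3.88), *MICAL1* (-3.77), the citrullinating enzyme *PADI1* (-3.75), the interferon-induced *ISG15* (-3.68), the cathepsin *CTSH* (-3.45) and the desmosomal *DSC1* (-3.28). *ELOVL3* itself was at 310 CPM in the anagen and 156 in the telogen IRS cells.

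Cells rich in *KRT79* (at least 5 UMIs and 1000 CPM, 88 in anagen and 332 in telogen) mark the upper follicle. Against them 11.6% of genes were higher and 12% lower in anagen, and 13% and 14.1% in telogen, and the lipid union was higher in 49 of 88 (median 1.15) and 47 of 85 (median 1.10). The highest were *MBOAT2* (7.26), *APOE* (6.78), *ECHDC1* (6.03), *ACSBG1* (5.96), *PNPLA3* (5.87), *ELOVL1* (5.81), *MOGAT3* (5.77) and *DECR1* (5.15) in anagen. *KLK7* was lowest, with 50.5 against 3529 CPM (-5.87), followed by *KLK10* (-4.44), *CCL20* (-4.30), *KLK5* (-4.09), *AREG* (-4.07), *KRT23* (-3.81), the protease inhibitor *SPINK5* (-3.67) and the suprabasal protein *SBSN* (-3.61). The members therefore carried *KRT79* with far less of the kallikreins than the cells richest in it.

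Suprabasal cells (*KRT1* and *KRT10* of at least 1%, 2612 in anagen and 3553 in telogen) gave 9.94% of genes higher and 7.71% lower in anagen, and 13.9% and 11.8% in telogen. The lipid union was higher in 45 of 84 (median 1.10) and 51 of 81 (median 1.32). *MBOAT2* (7.33), *ACSBG1* (6.34), *APOE* (6.06) and *PNPLA3* (6.02) were highest in anagen. *CCL20* (-4.22), *AREG* (-3.93), the antimicrobial *S100A7* (-3.67) and *KRT10* (-3.61) were lowest in anagen. The low *KRT10* is no finding, since the suprabasal cells were chosen by *KRT1* and *KRT10*. The sebocyte list against these 3 kinds of cells was higher in 6 of 8, 6 of 9 and 6 of 9 counted genes in anagen and in 7 of 9, 5 of 9 and 5 of 9 in telogen.

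Not all members shared the whole of this profile. A small set carried UMIs of *KRT32* or *KRT82*, keratins of the hair cuticle that the rule did not limit, namely 3 members in anagen, 2 in catagen and 2 in telogen. These cells were picked out after their values were seen. They held 1, 1 and 1 *ELOVL1* UMIs in anagen and 0 in each of the catagen and telogen cells, with 0 UMIs of *PLIN2* in all 7. Instead they carried most UMIs of *CCHCR1*, a coiled-coil protein, with 123 of these UMIs against 15 in the remaining 128 anagen members, 1066 against 0 in catagen and 897 against 12 in telogen. *VSIG8*, a membrane protein of the hair shaft, had 50 against 3, 268 against 0 and 84 against 0 UMIs, and the hair cuticle protein *S100A3* had 30, 62 and 68 UMIs in these cells against 0 in all remaining members. *KRT14* gave 3, 1 and 6 UMIs in them against 7123, 73 and 3177. *APOE* was present in both sets. By stage it had 1446, 262 and 3972 CPM in the remaining members and 982, 2361 and 2378 in the cuticle keratin cells. Through these cells the list of hair cortex and cuticle genes had 1 of 3 counted genes higher in anagen and 2 of 3 in telogen, and the list of other IRS genes had 1 of 6 higher (*S100A3*) and 1 lower in anagen and 1 of 4 higher in telogen. Leaving them out gave 46 lipid genes higher in anagen and 49 in telogen.

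After they were set aside, catagen had 1 member. This cell had 11463 UMIs, with 213 of *ELOVL3*, 164 of *ELOVL1*, 69 of *MBOAT2*, 34 of *PNPLA3*, 29 of *PLIN2*, 25 each of *MOGAT3* and *FABP5*, 12 each of *FA2H* and *FAR2*, 10 of *KRT79*, 5 of *SOAT1* and 4 of *FASN*. It had 0 UMIs of *ACSBG1* and *KRT10* and 3 of *APOE*. It had 1 UMI each of *AADACL2* and *AGPAT4*. The catagen library can thus be described by this cell alone, and no catagen level of the profile can be given.

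Clustering of all kept cells on genes other than those of the rule placed the members together in anagen and telogen. In anagen 128 of 131 members (97.7%) fell into 1 of 22 clusters, which had 165 cells, and the other 3 were the cuticle keratin cells, in a cluster of 534. In telogen 15 of 18 fell into a cluster of 46 cells, the 2 cuticle keratin cells into a cluster of 547 that met the marker rule for other IRS cells, and 1 into a cluster of 292 that met the marker rule for granular layer and cornification. Both main clusters met the marker rule for a sebocyte-like cluster through *MGST1*, *FASN*, *PLIN2*, *SOAT1*, *FAR2* and *ACSBG1*, with *FAR2* and *ACSBG1* among their 10 leading genes. Most of these genes were already seen to be higher in the members that the clusters hold, so the name is no separate support. *KRT7*, *SCD*, *AWAT1*, *AWAT2* and *DGAT2L6* of the same list were not among the genes that passed. Of the 37 cells of the anagen cluster that were not members, 23 carried *ELOVL3*, and of the 31 in telogen 2 did. In catagen the 3 members were in clusters of 1242 (1 cell) and 233 (2 cells) and made no cluster of their own.

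Among the anagen members themselves the same kind of clustering gave 4 groups. The first, of 36 cells, was led by *TTC25*, the monooxygenase *FMO2* (530 against 109 CPM in the other members), *GSN*, *ACSL3* and *OAF*, and had a lipid union of 20113 CPM. The second, of 22 cells, had among its leading genes *SBSN* (5984 against 371 CPM), *S100A12*, *S100A7* (6007 against 484) and *PMP2* (967 against 80.7). It also had *KRT10* at 4460 against 615 CPM and *KRT1* at 6269 against 1092, only 2 UMIs of *FASN*, and a lipid union of 14711 CPM. In this group *SBSN*, *S100A7*, *KRT10* and *KRT1* were also above the cells outside the members, which had 2711, 4226, 3753 and 4624 CPM. It met the marker rule for upper follicle and for suprabasal epidermis, so the low suprabasal sums of the members do not describe it. The third, of 33 cells, was led by *AADACL2* (480 against 97.3 CPM), *INSIG1*, *ALPL*, *APOE* (2403 against 679) and *LRMP*, and had the highest lipid union, 34765 CPM, with *ELOVL1* at 13594 against 4518 CPM and *KRT10* at 164. It was also the deepest group, with a median of 5189 UMIs beside 3424 to 3842.5 in the others, and 1 cell gave 511 of its 4876 *ELOVL1* UMIs. The fourth, of 40 cells, was led by *IL1F10*, *CCHCR1*, *VSIG8*, *S100A3* and *CENPF*, had a lipid union of 10971 CPM and held the 3 cuticle keratin cells, which gave most UMIs of the first 4 genes. *CENPF*, a gene of dividing cells, was found in 27 of its 40 cells (386 against 21.7 CPM).

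The group with the highest lipid union thus had the least *KRT10* and the second group the most, while the fourth had the lowest lipid union with *KRT10* at 611 CPM. Across all 131 anagen members the Spearman rho of *ELOVL3* with *MBOAT2* was 0.74, with *ACSBG1* 0.60, with *APOE* 0.52, with *PLIN2* 0.32 and with *KRT10* -0.31. Since *ELOVL3* chose the cells, these values are a description too. The 18 telogen members formed 1 group at this setting and 3 at resolution 1.0, and with 15 neighbours per cell the former says little.

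The stages were compared as the ratio of telogen to anagen in the members less the same ratio in the other cells. The 1253 genes compared had at least 100 CPM in the members of either stage, so a gene could enter through 1 stage alone. Of these 54 (4.31%) were at least 2-fold higher and 45 (3.59%) lower in telogen, and with the mean over cells in place of the sum 110 were higher and 74 lower. *APOE* had a difference of 2.72, since it went from 1423 to 3867 CPM in the members and from 62.0 to 19.5 in the other cells. Per cell, *APOE* ranged from 0 through a median of 810 to 6688 CPM in anagen and from 151 through 3463 to 12423 in telogen, so the ranges overlapped. *CCHCR1* (3.44), *IL1F10* and *LY6G6D* (2.37) were also among the 5 highest, but a single cuticle keratin cell gave 97.8%, 94.1% and 93.8% of their telogen UMIs, and without such cells the differences were 0.35, 0.12 and 0.09. The immunophilin *FKBP1B* (2.52) went from 10.8 to 160 CPM, with UMIs in 7 of 131 anagen and 8 of 18 telogen members and 31 of its 77 telogen UMIs in 1 cell.

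The lowest differences were those of *POSTN*, a matrix protein (-4.57), *SPARC*, another (-3.43), *PMP2* (-3.29), the phosphatase *DUSP1* (-3.08) and *S100A7* (-2.56). *POSTN* was at 230 CPM in the anagen members and at 2.08 in telogen, which is 1 UMI. UMIs of *POSTN* were found in 51.1% of anagen and 5.56% of telogen members, beside 26% and 21.9% of endothelial cells. By share of cells, the anagen members were nearer to or below the endothelial cells for *DUSP1*, *S100A7* and *PMP2*. Their shares were 53.4% beside 64% for *DUSP1*, 85.5% beside 78% for *S100A7* and 33.6% beside 26% for *PMP2*. By level the order was another. In anagen *POSTN* had 230 CPM in the members beside 190 in endothelial cells, and *DUSP1* 196 beside 537. *S100A7* had 1068 beside 658 CPM and *PMP2* 174 beside 77.1. *S100A7* and *PMP2* were high in the second anagen group (6007 and 967 CPM, against 484 and 80.7 in the other members). No such share is given for *SPARC*. By the difference of ratios, 3 of 7 compared genes of the suprabasal list were lower in telogen, and none was higher. The same held for 3 of 3 genes of the basal list and 3 of 3 of the bulge and outer root sheath list. The basal *KRT14* (-1.31) went from 8572 to 6606 CPM in the members. In the other cells it went from 10623 to 20350, so most of its difference lay there. Of 40 lipid genes compared, 6 were higher and 1 lower, with a median difference of 0.45 against 0.06 over all genes. The 6 were *APOE*, *SOAT1* (1.37), *SC5D*, *FAR2* (1.18), *SCP2* (1.15) and *ELOVL4* (1.15), and the lower gene was *PMP2*. *SOAT1* and *SCP2* passed 100 CPM only in telogen (54.1 and 52.9 CPM in anagen), and *PMP2* only in anagen. The telogen members were 18 cells of greater depth, the anagen library had a higher depth floor, and the part of these in the differences was not tested.

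Differences that involve catagen rest on 3 cells of which 2 carried cuticle keratins. Over 1641 genes, 543 were higher and 238 lower in catagen than in anagen members. The highest were *LY6G6D* (7.91), *VSIG8* (7.70), *CCHCR1* (7.64), the transcription factor *ELF5* (7.20) and *PROCR* (6.44). The lowest were *KRT17*, *KRT10*, *ACSBG1*, *FOS* and *KLF6*, which had 0 UMIs in the catagen members, where 0 counts allow up to 116 CPM, beside 1946, 1021, 986, 360 and 1450 CPM in the anagen members. Of the genes with the highest difference from catagen to telogen, *ACSBG1*, *KRT10*, *FOS* and *DSC2* were likewise at 0 UMIs in catagen, and *JUN* had 38.7 CPM in catagen and 428 in telogen. *ELF5* had the lowest difference over 1644 genes (-6.89), from 1237 to 4.15 CPM.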

How the data were processed

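The authors deposited for each of the 3 libraries a filtered 10x matrix of counts, which are UMIs per gene and cell, with nothing normalized; the matrix holds 26924 genes, of which 15765 have a symbol. Per the file headers Cell Ranger 4.0.0 (anagen), 3.1.0 (catagen) and 6.0.2 (telogen) wrote the matrices, whereas the submitters' processing notes name 2.1.1. The genome build is not given in the sources used here, and RefSeq symbols could not be matched to the gene identifiers. The deposited cells numbered 12000, 12124 and 14573, and those with at least 200 detected genes were kept. Doublets were not removed; of the cells in the highest 5% of Scrublet scores (607, 655 and 734), 2, 0 and 0 were members, and leaving those cells out is 1 of the alternatives.

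UMIs were summed over the members and over the other cells of each library and given as counts per 1000000 UMIs (CPM). The log2 ratio had 10 CPM added to each side. Genes with at least 10 CPM in either sum were counted, without *ELOVL3* and the 6 keratins of the rule. With 1 library per stage no test across samples was possible, so exact binomial, exact conditional and, for the limit that 0 counts allow, 3-count bounds are given. Endothelial cells were those with at least 4 UMIs from at least 2 endothelial genes. Members were clustered (Leiden, resolution 0.5, 1000 variable genes, 10 components, 15 neighbours), and so were all kept cells (resolution 0.8, 2000 genes, 30 components). A cluster took a cell type name with a suffix -like where at least 3 markers of the type were 1.5-fold higher and 1 was among its 10 leading genes.

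The members and the 28 gene lists were chosen with earlier results of these data known. Genes were named if they were in a list with at least 50 CPM in the members or were listed as absent. Also named were the 20 highest and 10 lowest ratios in anagen among genes with a symbol (100 CPM). The 8 highest and lowest against another cell type, the 5 highest and lowest between stages, and the 5 leading genes of a group of members were named too. Other list genes named, under that level, and the cuticle keratin genes were chosen after their values were seen. Some genes that this rule names are not reported here. On simulated counts of 5691 genes for anagen and 5455 for telogen, some with 4-fold changes, 100% of the raised and 99% of the lowered genes were recovered in both, 0% and 0.685% of unchanged genes were called, and 95.4% and 97.4% of intervals held the true ratio. The simulated sums had counting error but no variation between cells. They therefore check the code, and cannot show how the calls and intervals hold for unequal cells. Python 3.11.15, numpy 2.4.6, pandas 2.3.3, scipy 1.17.1, scanpy 1.11.5 and matplotlib 3.10.9 were used.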

Additional observations from a re-analysis of the deposited data

How the results depend on the processing

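The lipid genes counted as higher ranged over the alternatives from 34 to 49 in anagen (46 as reported) and from 37 to 55 in telogen (49), and the sebocyte markers from 4 to 6 and from 5 to 6. Both stayed within 1.5 times the reported count. The share of members moved without the keratin limit to 1.32% in anagen and 0.174% in catagen, above the 0.152% then found in telogen, and to 0.199% in telogen among cells with at least 1000 genes. Counts over all genes followed the CPM added. With 1 CPM 773 were higher and 926 lower in anagen and 1241 and 1314 in telogen, and with 50 CPM 219 and 98 in anagen and 342 and 205 in telogen. The share of calls that were higher then was 69.1% in anagen and 62.5% in telogen at 50 CPM, and 60.1% in anagen for the mean over cells, against 52.9% and 49.5%. The mean over cells also gave 110 genes higher and 74 lower in telogen than in anagen members, against 54 and 45. At resolution 1.0 the telogen members fell into 3 groups in place of 1. Shares of cells with a UMI rose with depth, for anagen *ELOVL1* to 97.9% at 3000 UMIs and 100% unthinned, for *PLIN2* to 66.0% and 76.3%, and for *FASN* to 46.6% (anagen) and 88.9% (telogen) unthinned. The shares at 3000 UMIs left out 34 shallower anagen members. Of 30 leading genes in anagen none changed direction, and of 29 in telogen *AREG* did without the keratin limit (0.15) and *KLK7* did in the mean over cells (0.12). Short of 2-fold fell *KLK7* (-0.70) and *KLK10* (-0.39) in anagen and *KLK7* (-0.91) in telogen without the keratin limit, and *IGFBP3* (-0.88) and *ITPKC* (-0.98) in telogen with 50 CPM added. Leaving out the cuticle keratin members, the deepest member, the member with the most UMIs of a gene or shared barcodes, and the list counts for the 18 telogen members, which are under the 20 set for lists, were added after seeing the data. No paired analysis was possible because each stage had 1 library. For a gene with 0 UMIs in the members, depth allows a level of up to 3.61 CPM in anagen, 116 in catagen and 6.23 in telogen.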
